A study of Canis lupus familiaris with 6 samples.

Results

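The genes examined here build, supply and gate the primary cilium: the subunits of intraflagellar transport (IFT), the Bardet-Biedl syndrome (BBS) proteins, the nephrocystins and tectonics of the transition zone, the dynein-2 motor, and the polycystins and fibrocystin. They were taken by gene name, under a rule set with earlier results of these data known. A gene entered if its array name began with IFT or BBS and a number, with NPHP or with TCTN, or if it stood on a short list of further cilium genes (PKD1, PKD2, PKHD1, ARL3, CEP290 and others). This gave 45 genes with 68 probes, of 34378 gene names and accessions with 43603 probes on the array. ARL6, the small GTPase that brings the BBS complex to membranes, was on the list but no probe carried its name. For each gene the probe with the highest mean signal was used, 29 genes having 1 probe and 16 several.

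RNA came from MDCK cells, a line of dog kidney epithelium, in which tetracycline switches on GFP-RasV12, green fluorescent protein fused to an oncogenic, constitutively active Ras. The comparison asked how RasV12 cells change when normal cells surround them, and both groups carried the transgene and received tetracycline for 24 h. In the alone group (n = 3) the RasV12 cells had been cultured by themselves, and in the mixed group (n = 3) they had been co-cultured with normal MDCK cells that lack the transgene. GFP-positive cells were sorted from both cultures by flow cytometry, and their RNA was hybridised to 1-colour Agilent dog arrays. The labels give 10 normal cells to 1 RasV12 cell for mixed replicates 1 and 3. For mixed replicate 2, 1 label gives 100 to 1, while its treatment text gives the common ratio. The extraction text names cells with a β-catenin mutant, which the titles and the study's account of the array do not, so whether the arrayed cells carried it cannot be told from the labels. All cells derive from the MDCK line, nothing states that the replicates were separate cultures, and the p-values measure only the spread between these samples, which may be technical. The alone arrays shared slide 1 and the mixed arrays slide 2, each read in its own scan, so slide and culture cannot be told apart in any difference below. In sorted bulk RNA, fewer cells with a transcript and less transcript per cell cannot be told apart either.

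A primary cilium is a single microtubule-based antenna that grows from the mother centriole of a resting cell. Kinesin-2 drives trains of IFT-B and IFT-A complexes outward, dynein-2 returns them, the BBSome carries membrane proteins on these trains, and the transition zone at the base decides what enters. Kidney tubule cells, and confluent MDCK cells among them, carry such a cilium on the apical surface, where the polycystins reside, and defects in many of these genes cause cystic kidney disease.

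The array probes are 60-base oligonucleotides, and those of the genes that passed the test are printed because the values below are the brightness of these sequences and not of whole transcripts. Positions are those the scanner files give, on the dog build canFam3. The files tie each probe to a transcript but do not give its exon or intron. BBS2 was read at chr2:59705565-59705624 on the plus strand, BBS7 at chr19:18315581-18315640 on the plus strand and BBS10 at chr15:19331880-19331939 on the minus strand. CEP164 was read at chr5:16228673-16228732 and NPHP4 at chr5:59819667-59819726, both on the minus strand, and INVS at chr11:57195151-57195210 on the plus strand.
BBS2: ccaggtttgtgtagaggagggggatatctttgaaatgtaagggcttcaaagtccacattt
BBS7: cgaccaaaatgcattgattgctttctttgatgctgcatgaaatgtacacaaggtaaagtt
BBS10: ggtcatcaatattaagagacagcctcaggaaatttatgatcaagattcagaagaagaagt
CEP164: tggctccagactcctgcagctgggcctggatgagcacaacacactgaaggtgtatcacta
NPHP4: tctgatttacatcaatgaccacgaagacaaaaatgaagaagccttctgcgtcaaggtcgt
INVS: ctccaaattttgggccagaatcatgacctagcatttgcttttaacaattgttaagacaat

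IFT81 has a pair of probes to the same transcript, which gave opposite differences (below), so both are shown. The brighter probe is placed at chr26:8037344-8045892 on the plus strand, a span of 8549 bases for a 60-base sequence, so it joins sequence from both sides of a gap in the genome. The other lies without a gap at chr26:8100276-8100335 on the plus strand.
IFT81 brighter probe: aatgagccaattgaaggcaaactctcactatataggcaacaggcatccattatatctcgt
IFT81 other probe: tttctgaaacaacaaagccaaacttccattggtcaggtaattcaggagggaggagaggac

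For IFT88, a core subunit of IFT-B, the brightest probes overlap on the minus strand, at chr25:17415146-17415205 and chr25:17415138-17415197. Capitals mark the 52 bases that they share, so their values are close to a repeat reading of 1 site.
IFT88 brightest probe: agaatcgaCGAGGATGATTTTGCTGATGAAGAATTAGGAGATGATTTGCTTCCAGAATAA
IFT88 overlapping probe: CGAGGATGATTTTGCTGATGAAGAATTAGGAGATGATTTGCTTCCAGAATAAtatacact

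The 45 cilium genes did not move together when RasV12 cells were co-cultured with normal cells. Of the 45, 5 rose (NPHP4, CEP164, BBS10, INVS and BBS2), 2 fell (IFT81 and BBS7) and 38 did not pass the test. Levels are log2 signal relative to the 75th percentile of the same array, differences are mixed minus alone on that log2 scale with the standard error (SE) of the fit, and the test is the moderated test of limma, two-sided, with Benjamini-Hochberg adjustment over all 26534 probes tested and a threshold of 0.05. The 7 genes are 15.6% of the 45, against 11.2% of all probes tested (5.5% higher and 5.72% lower in mixed), a share near that background. The counts by role given below stand against this same background. The differences were above 0 for 23 genes and below 0 for 22, from -0.67 to 0.85. Their median was 0.08, and -0.004 over all probes tested. The median turned to -0.08 when arrays were scaled on the spike-in controls, which moved the median of all probes to -0.17, and 3 genes were then called (IFT81, BBS7 and IFT43), all lower, against 3.6% of all probes (1.07% higher, 2.53% lower). With replicate number as a block 5 of the 45 were called, against 10.6% of all probes. At an unadjusted p under 0.05 there were 13 higher and 7 lower genes, against 31.4% of all probes (15.5% higher, 15.9% lower). The 3 mixed arrays lay wholly above the 3 alone arrays for 13 genes and wholly below for 8, 46.7% in all, against 37.2% of all probes (17.8% above, 19.4% below).

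**Figure D1:**
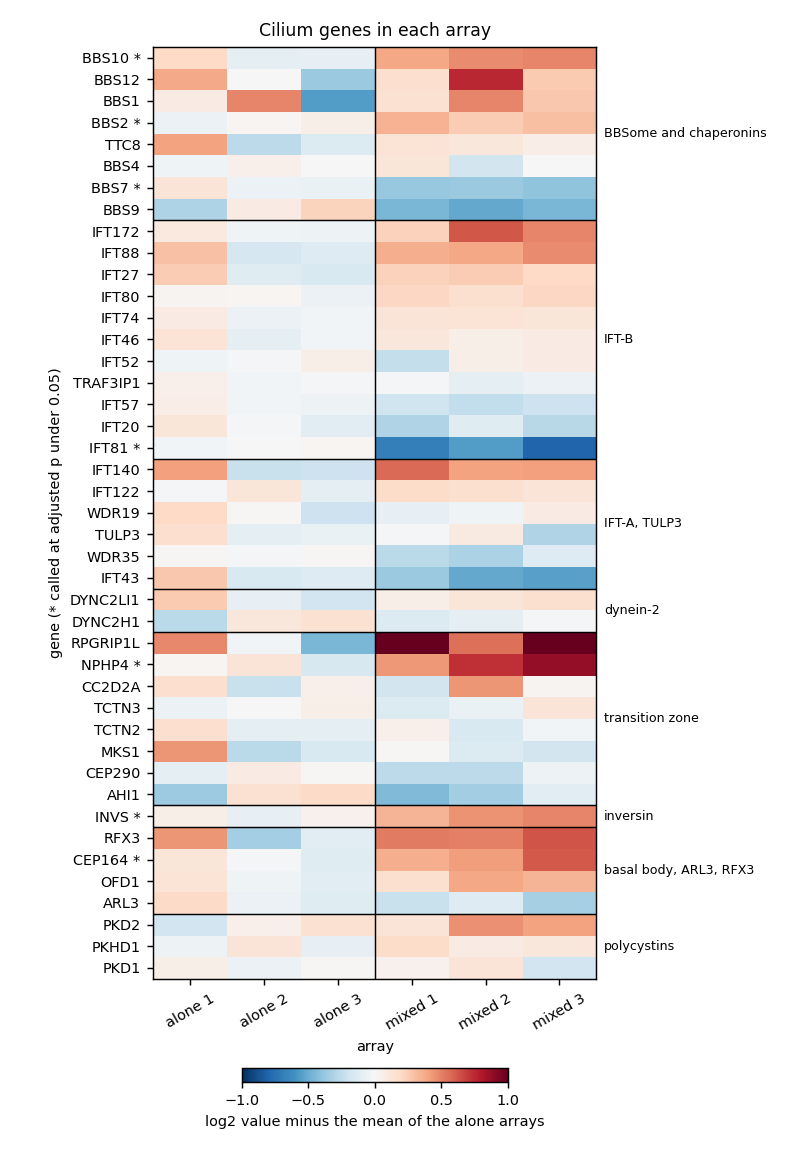
Heat map of 43 of the genes (rows, grouped by role, * called at an adjusted p under 0.05) in the 3 alone and 3 mixed arrays (columns); colour is the log2 value minus the gene's mean over the alone arrays, and the scale ends at -1 and 1. Red and blue rows stand side by side within most roles, and the first alone array often departs from the other two.

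The arrays were of similar quality, and the first alone array often departed from the rest of its group. The 75th percentile of signal ran from 592 to 700 intensity units, and 60.8% to 66.4% of probes were well above background. All 45 genes were tested and 44 were well above background on all 6 arrays. CC2D2A was so on the 3 alone arrays and 2 mixed arrays. The first alone array was the farthest of its group for 32 of 45 genes, against 7 and 6 for the others, and the nearest of its group to the mixed mean for 21, against 10 and 14. The same counts were not made over all probes, so they do not show a departure particular to the cilium genes. Without the first alone array 18 of the 45 genes were called (13 higher, 5 lower). The share of all probes called then rose too, to 26.4% from 11.2%. Without the second or the third alone array, or the second or the third mixed array, limma called 0 of the 45 genes, with 14 at an unadjusted p under 0.05 in each of these 4 fits, and at most 0.09% of all probes. Without the first mixed array 4 genes were called (IFT81, INVS, NPHP4 and IFT172), against 7.46% of all probes.

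**Figure D2:**
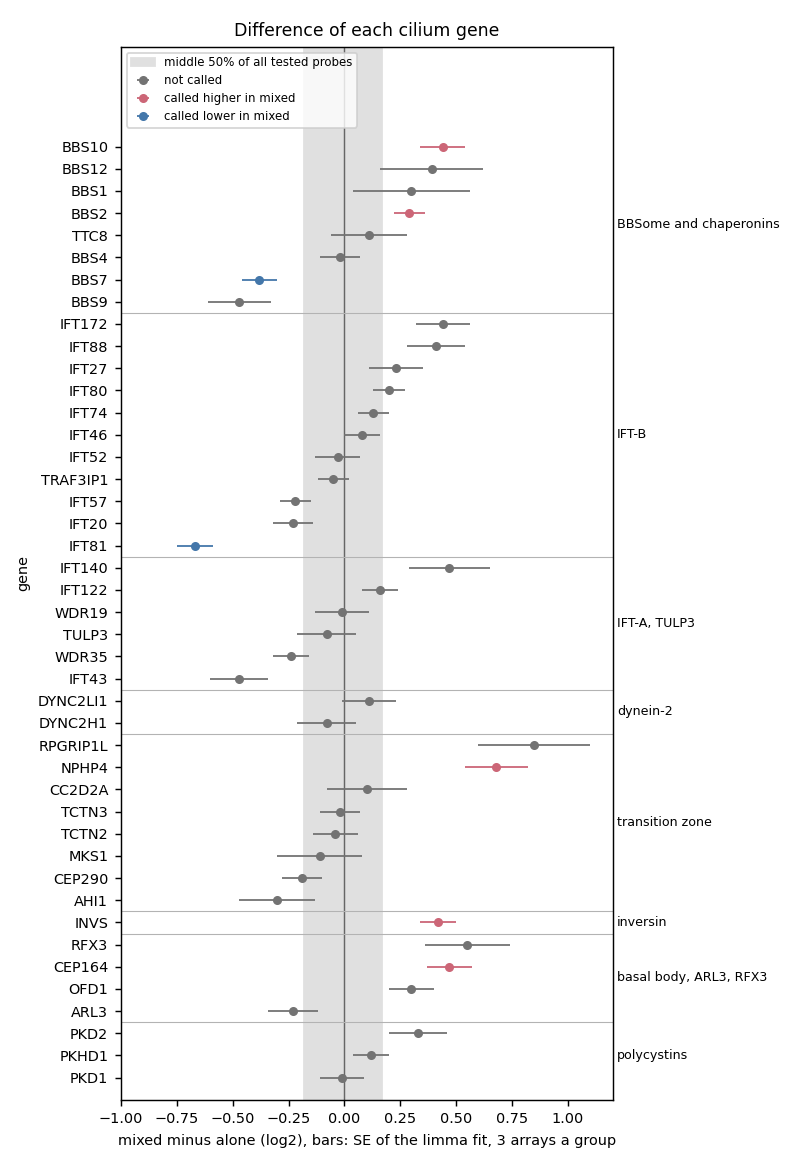
Mixed minus alone log2 difference of the same 43 genes (points) with the SE of the limma fit (bars, 3 arrays a group), by role; the grey band is the middle 50% of all tested probes, from -0.18 to 0.17. The called genes lie outside the band on both sides of 0, and the widest bars belong to RPGRIP1L, BBS1 and BBS12; under spike-in scaling the median difference of all 45 genes turns from 0.08 to -0.08.

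Among the polycystins and fibrocystin, whose genes are those of polycystic kidney disease, none of 3 was called by limma and 1 was under an unadjusted p of 0.05. PKD1, the receptor-like polycystin-1, read -3.52, -3.64 and -3.57 in the alone arrays and -3.54, -3.45 and -3.77 in the mixed arrays. These ranges overlap, and the difference was -0.01 (95% interval -0.25 to 0.23, adjusted p = 0.957). PKD2, the cation channel polycystin-2, read -2.59, -2.35 and -2.25 alone and -2.27, -1.94 and -2.0 mixed. Its lowest mixed value lies just under the highest alone value, and the difference of 0.33 ± 0.13 (SE, n = 3 a group) did not pass the test (95% interval 0.02 to 0.63, adjusted p = 0.139). PKHD1, which encodes fibrocystin, read -3.23, -3.05 and -3.26 alone and -3.00, -3.10 and -3.07 mixed, a difference of 0.12 with a 95% interval of -0.08 to 0.33 (adjusted p = 0.360). Its sign turned under spike-in scaling, to -0.04.

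IFT-B, the complex of outward transport, held 1 called gene among 11, and its members spread on both sides of 0 (6 above, 5 below, median 0.08). IFT81, which with IFT74 binds tubulin as cargo, gave at its brighter probe -1.71, -1.68 and -1.66 alone and -2.36, -2.24 and -2.47 mixed. The groups are well apart, with every mixed value over 0.5 below every alone value, and IFT81 fell by 0.67 on the log2 scale (SE 0.08, 0.627-fold, adjusted p = 0.0136). It was the lowest difference of the 45 genes and kept its call in 10 of 15 alternative settings, more than any other of the 7. The other probe of the transcript read -2.29, -3.01 and -2.90 alone and -2.25, -2.24 and -2.11 mixed. Here the mixed arrays lie above the alone arrays, the first alone array nearest to them, and the difference of 0.54 ± 0.19 did not pass the test (adjusted p = 0.109). Within an array, the brighter probe minus the other was 0.59, 1.33 and 1.25 alone and -0.11, 0.00 and -0.35 mixed. The mean of this log2 ratio was 1.05 alone and -0.16 mixed, a description of the opposite values already given, computed after they were seen and with no test. A fall of the whole transcript cannot be read from the brighter probe alone.

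IFT88, whose loss stunts cilia in mouse kidney, read -0.51, -0.97 and -0.93 alone and -0.44, -0.41 and -0.33 mixed. All mixed values lie above all alone values, the first alone array again close to them, and the difference was 0.41 ± 0.13 (adjusted p = 0.0927). The overlapping probe gave 0.43 (adjusted p = 0.0570) and a probe elsewhere in the transcript 0.41 (adjusted p = 0.154), so none of the 3 was called. IFT172, at the periphery of the complex, was also higher in every mixed array without passing the test: 0.68, 0.54 and 0.53 alone and 0.81, 1.20 and 1.07 mixed, a difference of 0.44 ± 0.12 (adjusted p = 0.0583). The other 8 IFT-B genes lay between -0.23 (IFT20) and 0.23 (IFT27). Among them IFT57, a subunit near the kinesin, was lower in all mixed arrays (difference -0.22, adjusted p = 0.0880), and IFT80 and IFT74 were higher in all of them (0.20, adjusted p = 0.107, and 0.13, adjusted p = 0.246).

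For IFT-A, which serves the return journey and the entry of membrane receptors, limma called 0 of 6 genes, with 3 under an unadjusted p of 0.05. The subunits differed in sign. IFT140, a scaffold subunit, read -1.22, -1.85 and -1.84 alone and -1.06, -1.23 and -1.22 mixed. The first alone array sits within the mixed range while the others are lower, and the difference of 0.47 ± 0.18 did not pass the test (95% interval 0.04 to 0.90, adjusted p = 0.135). IFT43, a small subunit, read 2.16, 1.74 and 1.76 alone and 1.52, 1.38 and 1.35 mixed. Each mixed value is below each alone value, with a difference of -0.47 ± 0.13 (adjusted p = 0.0649). With replicate number as a block IFT43 passed (adjusted p = 0.0456), as it did under spike-in scaling (adjusted p = 0.0321). TULP3, an adaptor that brings receptors to IFT-A, read -3.24, -3.51 and -3.48 alone and -3.43, -3.32 and -3.71 mixed, with overlap and a difference of -0.08 (95% interval -0.39 to 0.22, adjusted p = 0.70). WDR35 was lower in every mixed array (-0.24 ± 0.08, adjusted p = 0.0921), IFT122 was higher in every mixed array (0.16, adjusted p = 0.235), and WDR19 differed by -0.01 (95% interval -0.29 to 0.27).

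The motor of the return journey showed no detectable difference: limma called neither of its 2 genes, and none was under an unadjusted p of 0.05. DYNC2H1, the heavy chain of dynein-2, read 1.16, 1.54 and 1.58 alone and 1.29, 1.33 and 1.42 mixed. The mixed values fall within the alone range, and the difference was -0.08 (95% interval -0.38 to 0.22, adjusted p = 0.688). DYNC2LI1, its light intermediate chain, differed by 0.11 (95% interval -0.18 to 0.41, adjusted p = 0.574).

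Of the BBSome and its assembly factors 3 of 8 were called, 2 higher and 1 lower, against 11.2% of all probes (5.5% higher, 5.72% lower). Among the subunits of the coat itself BBS2 was called higher, narrowly, and BBS7 lower. BBS2, a core subunit that pairs with BBS7, read 0.33, 0.41 and 0.45 alone and 0.74, 0.64 and 0.69 mixed. The groups are apart and tight, and BBS2 rose by 0.29 ± 0.07 (1.23-fold, adjusted p = 0.0484). Its other 3 tested probes gave smaller positive differences, from 0.09 to 0.21, and none of these was called. BBS7 read -0.05, -0.24 and -0.25 alone and -0.56, -0.55 and -0.58 mixed. The mixed arrays agree within 0.03 and lie below all alone arrays, and BBS7 fell by 0.38 (SE 0.08, 0.767-fold, adjusted p = 0.0348). BBS10, a chaperonin-like protein that helps to assemble the complex, read -3.59, -3.89 and -3.87 alone and -3.40, -3.32 and -3.30 mixed. It rose by 0.44 ± 0.10 (1.36-fold, adjusted p = 0.0419), with the first alone array nearest to the mixed ones. With replicate number as a block neither rise passed (adjusted p = 0.0730 for BBS2 and 0.0635 for BBS10), and under spike-in scaling BBS7 stayed called (adjusted p = 0.0386) and these rises did not.

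BBS9, a scaffold of the same complex, read -2.37, -1.98 and -1.84 alone and -2.52, -2.57 and -2.52 mixed. It was lower in every mixed array without passing the test (-0.47 ± 0.14, adjusted p = 0.0752). BBS1, the subunit that binds ARL6, varied most among the alone arrays of this complex, with -3.86, -3.45 and -4.50 alone against -3.79, -3.45 and -3.67 mixed. The ranges overlap, and the 95% interval of the difference, -0.32 to 0.92, leaves its sign unsettled (adjusted p = 0.474). BBS12, another chaperonin-like factor, differed by 0.39 ± 0.23 (adjusted p = 0.292), TTC8 by 0.11 (adjusted p = 0.705) and BBS4 by -0.02 (adjusted p = 0.908), all with overlapping groups.

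At the transition zone 1 of 9 genes was called, and the 2 highest differences of all 45 genes lay here. NPHP4, a nephrocystin mutated in nephronophthisis, read -3.78, -3.67 and -3.96 alone and -3.37, -3.07 and -2.92 mixed. Every mixed value is above every alone value, and NPHP4 rose by 0.68 ± 0.14 (1.6-fold, adjusted p = 0.0313). RPGRIP1L, which anchors other proteins of the zone, read -4.41, -4.92 and -5.35 alone and -3.89, -4.34 and -3.88 mixed. Its difference was larger, 0.85 ± 0.25, but both groups were widely spread and it did not pass (95% interval 0.26 to 1.45, adjusted p = 0.0744). Its probe was among the 3 dimmest of the 45.

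CEP290, a tether between microtubules and membrane, read -1.76, -1.59 and -1.66 alone and -1.93, -1.93 and -1.72 mixed. The third mixed array lies within the alone range, and the difference was -0.19 (95% interval -0.41 to 0.03, adjusted p = 0.207). AHI1, mutated in Joubert syndrome, read -3.38, -2.87 and -2.83 alone and -3.46, -3.37 and -3.13 mixed. The first alone array is as low as the mixed arrays, and the difference of -0.30 ± 0.17 did not pass (adjusted p = 0.281). MKS1, CC2D2A, TCTN2 and TCTN3 differed by -0.11 to 0.10 with overlapping groups.

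INVS, which encodes inversin and names the compartment just above the transition zone, read -0.64, -0.78 and -0.66 alone and -0.36, -0.25 and -0.21 mixed. The groups are apart, and INVS rose by 0.42 ± 0.08 (1.34-fold, adjusted p = 0.0267). It was also called with replicate number as a block (adjusted p = 0.0462), though not under spike-in scaling (adjusted p = 0.199).

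Of the 4 genes at the basal body or of cargo release and gene control 1 was called. CEP164, the appendage protein by which the mother centriole docks to the membrane, read -3.78, -3.92 and -4.02 alone and -3.54, -3.48 and -3.29 mixed. The groups are apart, and CEP164 rose by 0.47 ± 0.10 (1.38-fold, adjusted p = 0.0371), a call that was lost with the replicate block (adjusted p = 0.0650) and under spike-in scaling (adjusted p = 0.173). RFX3, a transcription factor of ciliary genes, read -2.80, -3.58 and -3.35 alone and -2.72, -2.74 and -2.61 mixed. The first alone array comes within 0.1 of the mixed arrays, and the difference of 0.55 ± 0.19 did not pass (95% interval 0.09 to 1.02, adjusted p = 0.110). OFD1, a centriole and satellite protein, was higher in every mixed array at its used probe (0.30 ± 0.10, adjusted p = 0.101), and its second probe gave 0.34. ARL3, a GTPase that releases lipidated cargo in the cilium, was lower in every mixed array at its used probe (-0.23 ± 0.11, adjusted p = 0.191). Its second probe differed by only -0.03, with overlapping groups (adjusted p = 0.88). The files tie its probes to an ARL3-like locus, so the name is uncertain.

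**Figure D3:**
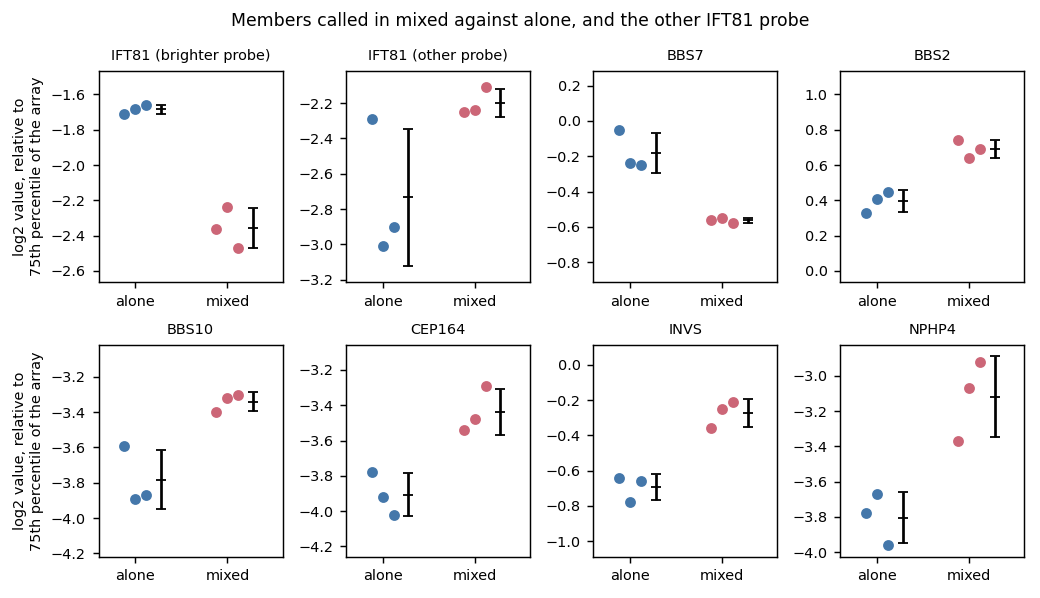
Log2 value relative to the 75th percentile of the array (vertical axes, whose ranges differ) in each alone (blue) and mixed (red) array for the 7 called genes and the other IFT81 probe; black marks are the mean and SD of 3 arrays. No called gene overlaps between groups, and the IFT81 probes move in opposite directions, from -1.68 to -2.36 at the brighter one.

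Several probes of 1 gene served as a check within these arrays. Of the 12 genes with more than 1 tested probe, 9 had the same sign in every probe and 3 did not. For IFT46 and IFT74 the opposite values were within 0.13 of 0 (-0.02 and 0.08, and -0.05 to 0.13), so IFT81 alone had large opposite differences. Of the 63 tested probes of the 45 genes 7 were called, a share near the 11.2% of all probes. BBS2 and IFT81 were the called genes with several tested probes, and each was called only at its brightest. IFT20, a subunit that also works at the Golgi, gave negative differences at all 3 probes (-0.31 to -0.11, none called), 2 of which overlap. BBS7, BBS10, CEP164, INVS and NPHP4 had 1 tested probe each, so no second reading stands beside their values.

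**Figure D4:**
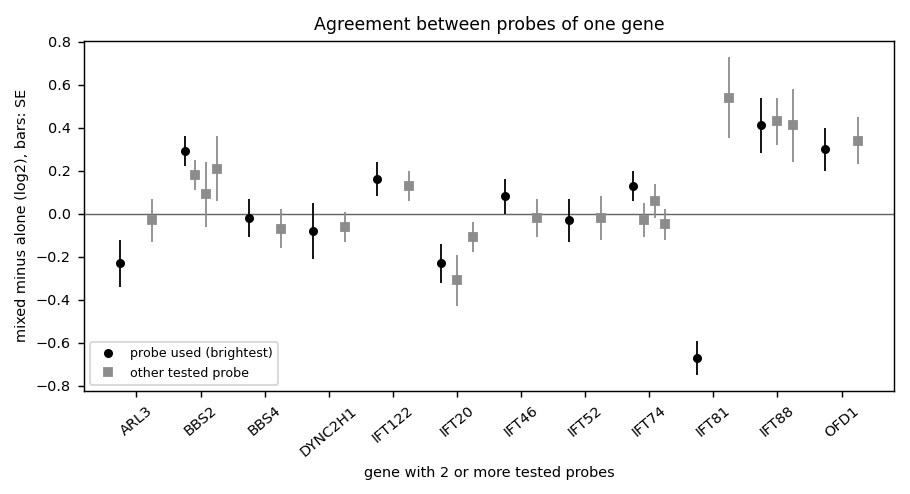
Mixed minus alone log2 difference (points) with SE (bars) of each tested probe for the 12 genes with several; black circles are the probes used and grey squares the others. IFT88 and OFD1 repeat their difference at each probe, whereas IFT81 goes from -0.67 to 0.54.

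Other cilium genes that the name rule did not take were read from a separate list, and they too moved in both directions. Of 90 such genes 73 had a probe and 65 were tested; 6 rose and 3 fell (13.8%), against the 11.2% of all probes, with a median difference of 0.08. Those that rose were NEK8, a kinase that works with inversin (0.69, adjusted p = 0.0171), TTC30B, a further IFT-B subunit (0.56, adjusted p = 0.0253), RAB3IP, which activates Rab8 for membrane supply (0.50, adjusted p = 0.0259), PCM1, the scaffold of centriolar satellites (0.41, adjusted p = 0.0324), ADCY6, an adenylyl cyclase (0.35, adjusted p = 0.0468), and IHH, a Hedgehog ligand (0.50, adjusted p = 0.0365). Those that fell were CEP41, needed for glutamylation of ciliary tubulin (-0.58, adjusted p = 0.0193), DYNLRB1, a light chain that dynein-2 shares with cytoplasmic dynein (-0.43, adjusted p = 0.0193), and CDON, a Hedgehog co-receptor (-0.49, adjusted p = 0.0364). IHH and CDON entered the test only through the group in which they were brighter: IHH was well above background on only 1 alone array and CDON on only 1 mixed array. Their differences are therefore not firm, and with normexp background correction they were 0.16 (adjusted p = 0.105) and -0.07 (adjusted p = 0.454). With the filter on all 6 arrays neither was tested, and 5 genes of the list were called higher and 2 lower. ADCY6 and CDON lost their calls with the replicate block (adjusted p = 0.0730 and 0.0528).

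Parts of the pathway around the 45 genes were otherwise without a call. KIF3A, the kinesin-2 motor of outward transport, differed by 0.01 (95% interval -0.21 to 0.23, adjusted p = 0.956). GLI1, a target gene of Hedgehog signalling, differed by -0.36 with a wide interval (-1.02 to 0.30, adjusted p = 0.421). PTCH1, the Hedgehog receptor, was not tested, being well above background on 2 alone arrays and no mixed array. AURKA, a kinase of cilium disassembly and mitosis, differed by -0.31 (95% interval -0.63 to 0.01, adjusted p = 0.174).

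On all 6 arrays 7 of 9 markers of kidney epithelium with a probe were well above background, as were 5 of 12 of multiciliated cells. Multiciliated cells use many of the same transport genes. CDH1, CDH16, EPCAM, KRT18, PAX8, SLC12A1 and AQP2 were well above background on all 6 arrays, while UMOD and SLC12A3, transport and secretory genes of the distal nephron, were so on none. AQP2, the water channel of the collecting duct, was the 1 marker called (0.36 higher in mixed, adjusted p = 0.0248). Of 12 motile cilium genes with a probe, 7 were well above background on no array, among them FOXJ1, the master regulator, and DNAH5, an outer dynein arm. The other 5 (DNAH9, TEKT1, ZMYND10, SPAG6 and DNAH11) were well above background on all 6 arrays, DNAH9 with means of 0.80 alone and 0.57 mixed. These 5 were tested and gave 0 calls by limma, with 2 under an unadjusted p of 0.05. The summed level of the 12, in units of the array's 75th percentile, was 3.27 to 5.04 alone and 3.06 to 3.88 mixed. Fibroblast and endothelial markers were detected too: 7 of 10 with a probe were well above background on all 6 arrays, VWF the brightest (2.31 alone, 2.48 mixed). Detection therefore does not set the kidney list apart. The fibroblast and endothelial list summed to 6.89 to 9.12 alone and 7.71 to 9.41 mixed, with 0 of 7 tested called by limma and 2 under an unadjusted p of 0.05. Genes that follow Ras-MAPK activity summed to 136 to 140 alone and 115 to 132 mixed, without overlap. The brightest of them, DUSP6, weighs most in this sum and was not called (-0.19, adjusted p = 0.205). Of 13 genes 4 lay above 0 and 9 below. By limma 4 were called (30.8%, against 11.2% of all probes): FOSL1, EPHA2 and CCND1 lower (-0.52, -0.71 and -0.59) and EGR1 higher (0.77). Cell cycle genes, which matter because cilia are taken down before division, summed to 190 to 236 alone and 223 to 232 mixed. Of 16 genes 12 lay above 0, against 49.4% of all probes. By limma 1, CCNE2, was called (0.85), which is 6.25% against 11.2% of all probes. At an unadjusted p under 0.05 there were 6 higher and 0 lower, against 15.5% and 15.9% of all probes. The part of Ras output and of the cell cycle in the cilium gene differences was not tested.

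The base composition of the probes differed little between calls. The median GC content was 43.3% over the 45 used probes, 41.7% for the 5 genes called higher and 38.35% for the 2 called lower. Over all tested probes it was 41.7% for those called higher, 43.3% for those called lower and 45% for those not called. The rank correlation of GC content with the difference, a description over probes of the same 6 arrays, was 0.17 over the 45 genes and 0.04 over all tested probes.

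**Figure D5:**
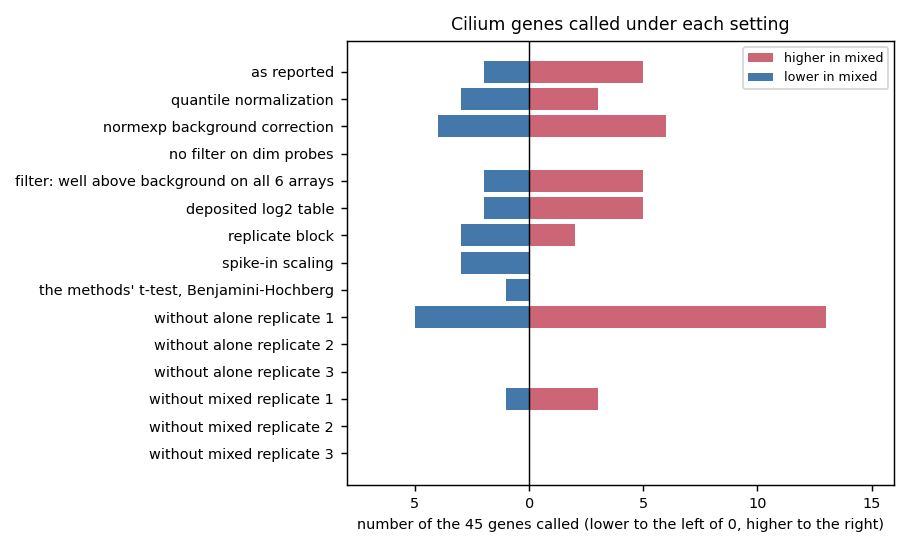
Number of the 45 genes called higher (red, to the right) or lower (blue, to the left) in mixed under each way of processing the arrays. The bars run from 0 genes, without the filter on dim probes (0.0275% of all probes called) or without any 1 of 4 arrays, to 18 genes without the first alone array; with spike-in scaling the only 3 calls are lower.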

How the data were processed

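Per the labels and the file headers, Cy3-labelled RNA was hybridised to Agilent dog arrays and read with Agilent Feature Extraction 10.10.1.1; the deposited scanner files give background-subtracted signal intensity per spot. The deposited table of log2 values equals log2 intensity minus the 75th percentile log2 of each array (largest departure 0.0773 over 26529 probes), with column medians of -0.83 to -0.78; direction and scale are thus known. How probes of that table were chosen is not given in the sources used here.

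Control and outlier spots were removed, spots of a probe averaged, and log2 intensity set relative to the 75th percentile of each array. A probe was kept if Feature Extraction marked it well above background throughout 1 group or both (26534 of 43603 probes). These were fitted with limma 3.58.1 (R 4.3.3; lmFit, eBayes, mixed minus alone, no covariate), and two-sided p-values were adjusted by Benjamini-Hochberg and called under 0.05. The number of arrays limits the precision. On simulated data with 200 changed probes of 26534, the fit recovered 79% of 2-fold and 96% of 4-fold changes, with 6 false calls. These changes were larger than that of any called cilium gene, so recovery at the differences reported here was not measured. The simulated noise held no slide effect and no deviation shared within an array, so its false calls do not describe these arrays.

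The study's methods name an unpaired two-tailed t-test, which was run as an alternative, as were quantile normalization, normexp (offset 50), other filters, the deposited table, spike-in scaling, single arrays left out and replicate number as a block. Same-numbered arrays deviated together (correlations 0.349, 0.162 and 0.296 over 26528 probes), while different numbers gave -0.329 to 0.238. The value of 0.238, for alone array 2 with mixed array 3, was above the 0.162 of the arrays numbered 2. The numbers come from the sample titles, and in both groups they equal the slot, 1 to 3, that each array took within its slide. The replicate block therefore stands for number and slot alike, and which of them the correlations follow was not tested. Named with values in every array were the called genes, the 5 largest rises and the 5 largest falls among genes detected above background on each of the 6 arrays, and a fixed set (IFT88, IFT140, DYNC2H1, BBS1, ARL6, CEP290, the polycystins, PKHD1, TULP3 and RFX3); IFT172 was added after its values were seen. Named by their differences were, in the other cilium list, the called genes, KIF3A, GLI1, PTCH1 and AURKA. The single values of some genes that entered the counts are not reported here. The members and lists were chosen with earlier results of these data known. The figures were drawn with matplotlib 3.10.9.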

Additional observations from a re-analysis of the deposited data

How the results depend on the processing

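The counts of called cilium genes (7 of 45: 5 higher, 2 lower) depended on the filter, the scaling and single arrays. Quantile normalization called 6 genes (3 higher, 3 lower), against 11.3% of all probes, and normexp background correction 10 (6 higher, 4 lower), against 15%. Without the filter on dim probes limma called 0 (0 higher, 0 lower; 16 at an unadjusted p under 0.05), and 0 of the other cilium genes (0 higher, 0 lower), while 12 of 43603 probes were called. Spike-in scaling gave 3 genes, 0 of them higher, and 2 of the other list, 0 of them higher, and moved the median from 0.08 to -0.08; all 7 usable spike-in controls were higher on the mixed slide, by 0.16 in the mean. The methods' t-test gave 1 gene after Benjamini-Hochberg adjustment (0 higher, 1 lower; IFT81), against 3.12% of all probes, and 1 of the other list (0 higher, 1 lower), and 15 unadjusted (9 higher, 6 lower), against 27.6% of all probes, with 17 of the other list, 8 of them lower. With the replicate block 5 genes were called, 2 higher and 3 lower, and 4 of them (IFT81, INVS, NPHP4 and BBS7) were among the 7. The block ended the calls of BBS10, BBS2, CEP164, ADCY6 and CDON and added IFT43, as given above. Leaving out 1 array moved the genes called from 0 to 18 (0 to 13 higher, 0 to 5 lower), those of the other list from 0 to 23 (0 to 15 higher, 0 to 8 lower) and the median from 0.00 to 0.11. The filter on all 6 arrays and the deposited table gave the same 7 genes. The deposited table holds nearly the same values as those tested, so its calls are a repeat. The filter on all 6 arrays took the calls of the other list from 9 to 7 (5 higher, 2 lower). Of 508 alternative values of 34 single genes 360 kept direction and side of the threshold, 121 lost the call, 16 gained it and 11 turned sign, all 11 in genes that were not called. These were KIF3A (0.00 with quantile normalization, -0.15 with spike-in scaling, -0.01 without the first alone array, 0.00 without the third and -0.06 without the third mixed array), PKD1 (0.04 with normexp, 0.02 without the first alone and 0.08 without the third mixed array), TULP3 (0.00 and 0.03 without the same arrays, and down to -0.16 over all single arrays left out) and PKHD1 (-0.04 with spike-in scaling). The cause of these changes was not tested. The slide could not be fitted as a block, since each slide held 1 group. Low signals limit RPGRIP1L, BBS12 and CC2D2A, whose probes were the dimmest of the 45. The called BBS10, CEP164 and NPHP4 were also dim, at 39.7 to 78.1 intensity units. With normexp their rises were smaller, 0.21 for BBS10, 0.25 for CEP164 and 0.38 for NPHP4. BBS10 then lost its call by limma (adjusted p = 0.112), while CEP164 and NPHP4 kept theirs.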
